A study of Drosophila melanogaster with 3 samples.

Results

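The 73 nuclear genes for mitochondrial ribosomal proteins are the protein-coding genes of the *Drosophila melanogaster* annotation whose symbol is mRpL or mRpS followed by a number, out of 13945 protein-coding genes in all. They code for proteins of the large subunit (47 genes, mRpL) and of the small subunit (26 genes, mRpS) of the ribosome inside mitochondria. Their promoters were examined in a chromatin immunoprecipitation experiment (ChIP-seq) that mapped where the CG12659 protein lies on the genome. The chromatin came from whole embryos of both sexes together, collected between 0 and 24 h of age, of a transgenic line in which CG12659, with green fluorescent protein (GFP) at its C-terminal end, was stably expressed. The chromatin was sonicated to 200 to 800 bp. The labels disagree on the antibody, since their antibody field names CG12659 and the description an anti-GFP antibody, and the description is followed here. There were 3 biological replicates in 1 group, and no embryos without the fusion were analysed here. Every value is thus a position in a list of enriched regions and not a difference from a control group analysed here. The authors called these regions against 1 control alignment. Whole embryos mix all cell types and a day of development. Which promoter drove the fusion was not known here.

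Mitochondria carry their own small genome, and the few proteins it codes for, which are subunits of the oxidative phosphorylation complexes, are made by a dedicated ribosome. All protein components of that ribosome in flies are made from nuclear genes and imported. The mitochondrial ribosome descends from a bacterial one, so part of its proteins carry the numbers of their bacterial counterparts, while most of the others were added in mitochondria. CG12659 has a YL1-type C-terminal domain and is the fly counterpart of INO80C, a subunit of the INO80 complex, an ATP-driven machine that moves and exchanges histones at promoters and at replication and repair sites.

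The authors deposited a set of 8952 regions that were reproducible between replicates by an irreproducible discovery rate step, a pooled list of 30000 regions, and 1 list per replicate of 30000, 30000 and 28466 regions, all on the dm6 build. Each region has a summit and a signal value, which was compared only within a list, since nothing in the sources used here puts the replicate lists on 1 scale. The reproducible set carries the signals of the pooled list and equals its 8952 regions of highest signal. The lists hold no read counts, so the depth per sample was unknown. A gene was counted as having a promoter summit when a summit lay within 500 bp of any of its annotated transcription start sites (TSSs). A reproducible summit therefore does not require a region in every replicate. mRpS14 and mRpL40, named after their values were seen, had a reproducible summit and no region within 500 bp in replicate 3.

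CG12659-GFP was found at most mitochondrial ribosomal protein promoters. A reproducible summit lay at 60 of the 73 genes (82.2%, exact 95% interval 71.5 to 90.2%), against 42.3% of all protein-coding genes. Among the 8952 regions of highest signal in each replicate, the number was 59 of 73 in replicate 1, 57 in replicate 2 and 57 in replicate 3, or 79.0% ± 1.6 (SD, n = 3). The shares of all protein-coding genes in the same lists were 43.1%, 41.2% and 40.6%. The genes exceeded the background by 37.7, 36.9 and 37.5 percentage points in the 3 replicates, a mean of 37.4 ± 0.43 (SD). The exact two-sided sign-flip test over replicates gave p = 0.25, which is the smallest value that 3 replicates allow. Each comparison of gene classes below that gives its 3 replicate differences had the same p. So had the comparison of X-linked with autosomal genes, and other comparisons were not tested. In all 3 replicates 51 of the genes had such a region, against 36.3% of protein-coding genes (5056 of 13945), and 10 had it in none, against 53.3% (7438 of 13945). In the pooled list without a limit on signal, 68 of the 73 had a region, against 57.9% of all protein-coding genes. Cytosolic ribosomal protein genes had a higher share (86 of 92, 93.5%), and the difference of the mitochondrial from the cytosolic genes was −11.6, −15.4 and −14.3 points in the replicates. The share of the mitochondrial ribosomal protein genes was above that of genes for oxidative phosphorylation subunits (56 of 87, 64.4%) by 16.5, 21.8 and 18.3 points. Both comparison lists were taken by the pattern of the symbol and may hold paralogues. The lists also differ in promoter geometry. A neighbour starting on the other strand within 1000 bp upstream was present at 54.0% of the oxidative phosphorylation genes. It was present at 63.0% of the cytosolic and 79.5% of the mitochondrial ribosomal protein genes.

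**Figure D1:**
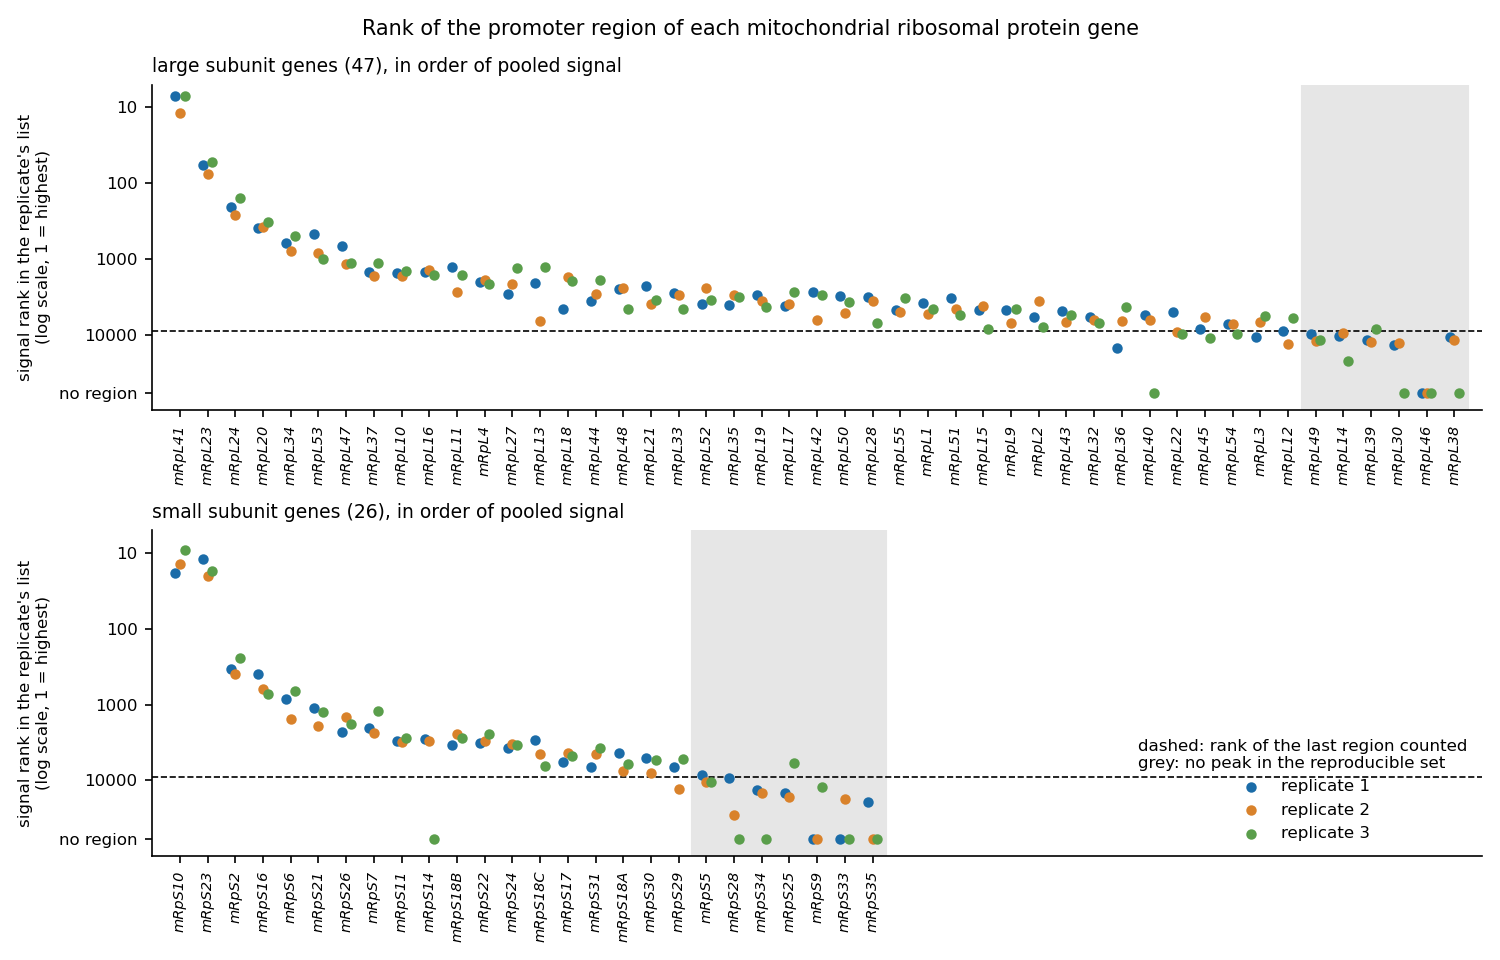
Signal rank (log axis, 1 is the highest) of the strongest region within 500 bp of a TSS in each replicate's list, for the 47 large subunit genes (top) and the 26 small subunit genes (bottom), ordered by pooled signal. Points on the lowest line have no region in that replicate. In most genes the 3 replicates lie close together, and 6 large and 7 small subunit genes (grey) have no reproducible summit.

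Within the reproducible set the mitochondrial ribosomal protein promoters had signals close to those of other promoters with a summit. The median signal percentile of the 60 genes with a summit was 66.0 (quartiles 46.3 and 83.9), against 66.4 over the 5903 protein-coding genes with one. Cytosolic ribosomal protein genes had a median percentile of 89.5, and oxidative phosphorylation genes 63.6. In the replicate lists, where the percentile is taken over about 30000 regions, the median over genes was 88.0 ± 0.45 (SD, n = 3), against 84.6 ± 0.61 for all protein-coding genes. For divergent genes, whose upstream neighbour starts on the other strand, it was 89.5 ± 0.28, against 89.1 ± 0.72 for all divergent protein-coding genes. The pooled signal ranged from 200 to 4133 with a median of 457. Of the 60, 11 lay in the highest 10% of the set (18.3%, against 15.7% of the 5903), and 17 lay in its lower 50% (28.3%, against 31.9%). The order of the genes was similar between replicates. Across genes, Spearman's rho of the signal was 0.84 between replicates 1 and 2 (60 genes), 0.85 between 1 and 3 (58 genes) and 0.85 between 2 and 3 (58 genes). These are correlations across genes that share libraries, and genes are not independent replicates.

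A group of 4 genes stood far above the rest and ranked among the 100 strongest regions of the whole set, as 93 of the 5903 protein-coding genes did. mRpL41, a large subunit protein added in mitochondria, had a pooled signal of 4133 (rank 8 of 8952) and signals of 1727, 1326 and 1116 in replicates 1, 2 and 3, which ranked 7, 12 and 7 in their lists. mRpS10, which has a bacterial counterpart in the head of the small subunit, had a pooled signal of 3779 (rank 14) and ranked 18, 14 and 9 in the replicates. mRpS23 had a pooled signal of 3734 (rank 16) and replicate ranks of 12, 20 and 17. These 3 genes were within the 20 strongest regions of every replicate. mRpL23 codes for the protein at the exit of the peptide tunnel, where in bacteria nascent chains meet their targeting factors. Its pooled signal was 2443 (rank 61) and its replicate ranks were 58, 76 and 53.

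The next 8 genes were well below these 4. mRpL24, which sits beside L23 at the tunnel exit in bacterial ribosomes, had a pooled signal of 1606 (rank 199) and replicate ranks of 208, 261 and 159. mRpS2 followed with 1308 (rank 324; replicate ranks 340, 394 and 241) and mRpL20, an early assembly protein in bacteria, with 1245 (rank 359; 398, 379 and 325). Replicate 3 gave each of these 3 genes its highest rank. The others were mRpS16 (pooled signal 1072, replicate ranks 388, 612 and 722), mRpL34 (986; 628, 801 and 503), mRpL53 (936; 465, 826 and 997), mRpL47 (865; 672, 1154 and 1123) and mRpS6 (811; 838, 1557 and 661). All 12 genes lay among the highest regions of all 3 replicates, which is the data that the pooled signal used to pick them was made from. All 12 had a divergent neighbour gene, as did 52 of the 60 genes with a summit.

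Sequence under 6 of the 12 strongest summits is shown because it makes the base composition at these positions visible. These 6 have no exon within 50 bp of the summit. That choice leaves out the 3 summits of the 12 that are lowest in A and T, those of mRpS16, mRpL53 and mRpL47, at 42.6%, 46.5% and 53.5%. The 6 stretches are read 5′ to 3′ on the strand of the mitochondrial ribosomal protein gene, from the RefSeq release 6 genome (dm6). The capitals mark the 11 bases centred on the summit. The mRpS10 stretch is chr3R:15229483-15229583 on the plus strand, and mRpS23 is chr2L:13835415-13835515 on the minus strand. The mRpL24 stretch is chr2L:4945441-4945541 on the minus strand, and mRpL20 is chr3L:13018104-13018204 on the minus strand. The mRpS2 stretch is chr2L:4850528-4850628 on the minus strand, and mRpS6 is chr3L:4364322-4364422 on the plus strand.
mRpS10: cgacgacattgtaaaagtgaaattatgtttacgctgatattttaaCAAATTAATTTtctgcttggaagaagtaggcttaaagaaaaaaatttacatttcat
mRpS23: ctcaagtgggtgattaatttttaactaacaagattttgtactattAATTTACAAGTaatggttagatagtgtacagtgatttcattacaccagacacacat
mRpL24: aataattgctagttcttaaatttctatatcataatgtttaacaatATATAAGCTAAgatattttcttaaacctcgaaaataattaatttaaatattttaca
mRpL20: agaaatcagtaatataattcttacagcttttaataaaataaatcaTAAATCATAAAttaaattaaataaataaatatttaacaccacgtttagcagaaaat
mRpS2: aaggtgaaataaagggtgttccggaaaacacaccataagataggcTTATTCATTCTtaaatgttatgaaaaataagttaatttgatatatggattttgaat
mRpS6: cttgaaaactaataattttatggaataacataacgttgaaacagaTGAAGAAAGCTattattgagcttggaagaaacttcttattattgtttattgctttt
These 6 stretches hold 73.3%, 70.3%, 83.2%, 83.2%, 72.3% and 74.3% A and T in the order shown, and none holds a match to any of the 12 promoter motifs searched. Over the 12 strongest genes the median A and T content within 50 bp of the summit was 72.8%, with mRpS16 lowest at 42.6%, and over the other 48 it was 63.4%. The median over all 5537 promoter summits of the set was 62.4%.

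The motifs searched on both strands were the DNA replication-related element DRE (TATCGATA), the BEAF-32 core (CGATA), the Motif 1 core (GGTCACAC), the Motif 5 E-box (CAGCTG) and its longer form (AACAGCTG), another E-box (CACGTG), the GAGA factor site (GAGAG), the TATA box (TATAAA), an initiator (TCAGTT), 2 forms of Motif 6 (GTATTTT and GTATATTT) and the Motif 7 core (CATCNCTA). The long form of Motif 5 contains the short one, and DRE contains the BEAF-32 core. Within 50 bp of the 60 summits the GAGA factor site was found at 5%, against 9.55% of all promoter summits. The BEAF-32 core was found at 26.7% against 28.2%, DRE at 3.33% against 5.54% and the Motif 1 core at 3.33% against 5.13%. The 6-letter Motif 5 E-box was at 6.67% against 6.57%, its 8-letter form at 1.67% against 2.89% and CACGTG at 1.67% against 0.885%. The TATA box was at 18.3% against 17.6%, the initiator at 5% against 6.30%, the Motif 7 core at 3.33% against 3.59% and the 2 forms of Motif 6 at 11.7% against 8.24% and 3.33% against 2.55%. With 60 summits, 1 gene is 1.67 points, and these shares were not tested. Within 100 bp the 8-letter Motif 5 form was at 11.7% against 5.83% and CACGTG at 10% against 2.42%. There the 6-letter form was at 20% against 13.1% and the GAGA factor site at 11.7% against 18.7%. At that distance the BEAF-32 core was at 43.3% against 44.6%, DRE at 10% against 10.4% and the Motif 1 core at 8.33% against 9.52%. The TATA box was at 30% against 32.2%, the initiator at 8.33% against 12.2% and the Motif 7 core at 5% against 6.99%. The 2 forms of Motif 6 were at 15% against 15.4% and 3.33% against 4.84%.

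Over whole promoter windows the Motif 5 E-box stood furthest from its background share. In the window from 250 bases before to 50 after the canonical TSS, the 6-letter Motif 5 E-box was present in 40 of the 73 genes (54.8%), against 17.9% of 13944 protein-coding genes and 21.7% of the 5526 divergent ones. Its 8-letter form was present in 27 (36.99%), against 7.59% and 11.3%. By subunit, the 8-letter form was in 18 of 47 large and 9 of 26 small subunit genes. It was present in 22 of the 60 genes with a summit and in 5 of the 13 without one. Of the 45 E-box sites in these promoters, 35 (77.8%) lay within 50 bp of the TSS, with a median position 4.5 bp after it, against 49.9% of the 2825 sites in all promoters. DRE was present in 20.5% of the windows against 8.94% of all and 14.5% of divergent promoters, and the GAGA factor site in 16.4% against 30.3% and 24.97%.

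The E-box and the summit were usually in different places. In the 32 genes with both, the nearest E-box was a median 108.5 bp from the summit (quartiles 79.5 and 166 bp). The examples below were chosen after their values were seen, from genes of high and low rank and from genes without a summit. Each is 24 bases on the strand of the gene (RefSeq release 6, dm6), with the 8-letter match in capitals as it reads on that strand.
mRpL23: ttgacaatCAGCTGTTtaaaacaa
mRpL24: cagttctcAACAGCTGattgcaag
mRpS2: ctacccacCAGCTGTTtaccaaaa
mRpL40: gcaacaaaAACAGCTGttcgtaca
mRpS35: tttctgtaAACAGCTGattgcttg
mRpL46: ccgcaaatCAGCTGTTccggctct
They lie at chr3L:2373717-2373740 on the minus strand (mRpL23), chr2L:4945328-4945351 on the minus strand (mRpL24), chr2L:4850415-4850438 on the minus strand (mRpS2), chr3R:11407931-11407954 on the plus strand (mRpL40), chr3L:2780877-2780900 on the plus strand (mRpS35) and chr3L:1777429-1777452 on the plus strand (mRpL46). mRpL46 had no region within 500 bp of a TSS in any of the 5 lists, although its E-box lies at the TSS. A match to these letters is a description of the sequence and was not tested as a binding site.

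**Figure D2:**
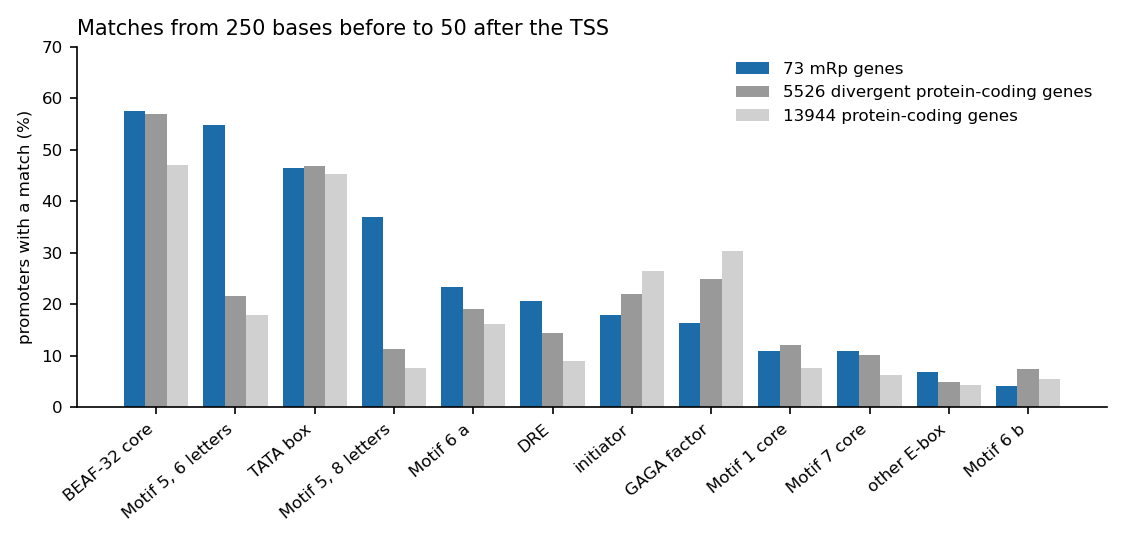
Share of promoters (y axis, %) with a match to each of the 12 motifs, on either strand, from 250 bases before to 50 after the canonical TSS, for the 73 mitochondrial ribosomal protein genes, 5526 divergent protein-coding genes and 13944 protein-coding genes. The 6-letter and 8-letter forms of Motif 5 stand at 54.8% and 36.99% in the mitochondrial ribosomal protein genes, against 17.9% and 7.59% of all.

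**Figure D3:**
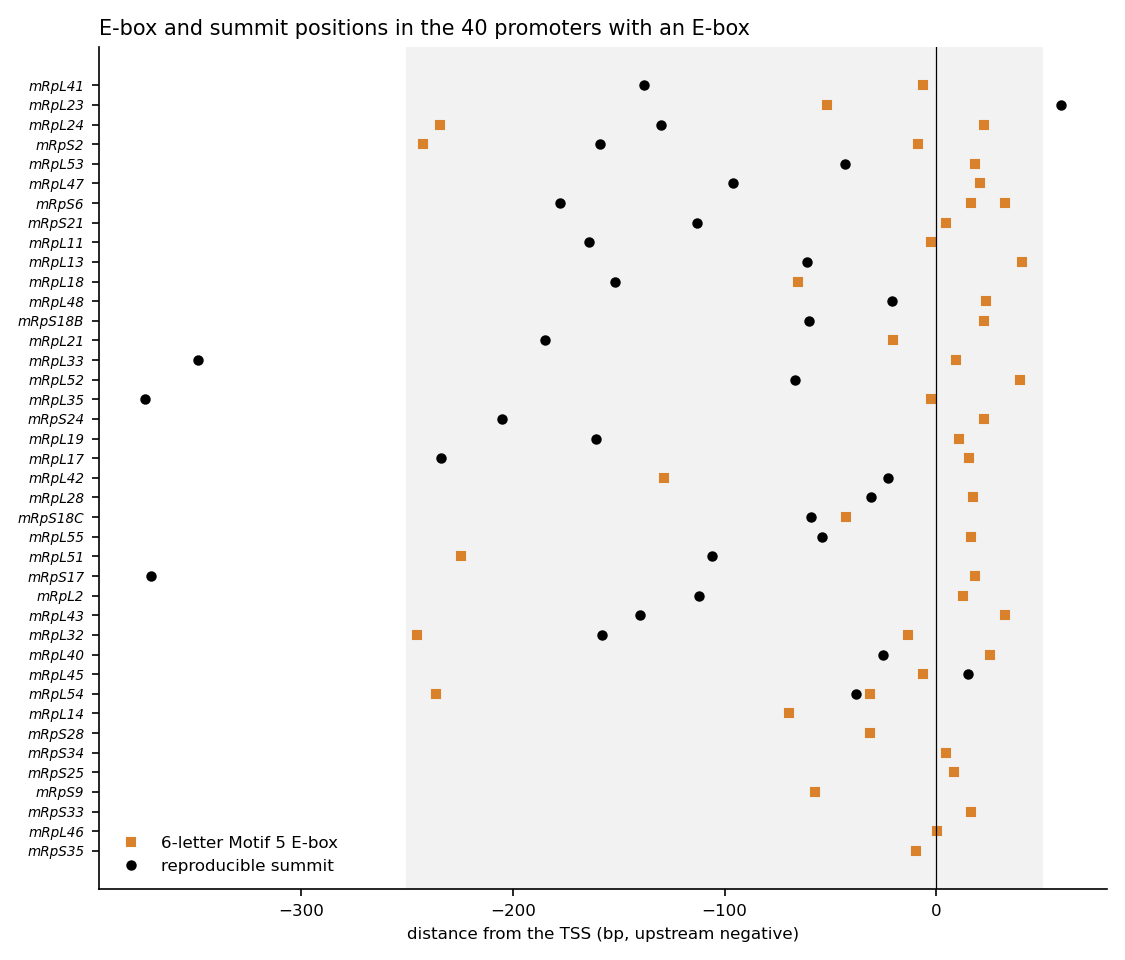
Position of each 6-letter Motif 5 E-box (squares) and of the reproducible summit (circles) in bp from the TSS, for the 40 promoters with an E-box, in order of pooled signal. Shading marks the window searched. Most squares lie near the TSS and most circles upstream, and the 8 lowest genes have an E-box and no summit.

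Large and small subunit genes were compared next. A reproducible summit was found at 41 of the 47 large subunit genes (87.2%) and at 19 of the 26 small subunit genes (73.1%). In the replicates the means were 82.3% ± 1.2 and 73.1% ± 3.8 (SD, n = 3), and the large subunit was ahead by 6.06, 13.7 and 7.77 points. The median percentile was 65.4 for large and 67.3 for small subunit genes with a summit. The gap of 14.2 points in the reproducible set depended on how it was counted. It was 5.24 points without replicate 2, 7.28 in the pooled list and 7.86 in the stronger 50% of the set. With TSSs within 200 bp it was 24.9, and where the region had to cover a TSS it was 29.1. Here and below, a set without 1 replicate was built anew from the overlap of the other replicates and held 7509 to 7771 regions. It thus differs from the reproducible set in its rule and size as well as in its replicates.

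The share was higher for proteins whose numbers are shared with bacteria (L1 to L36 and S1 to S21) than for those with higher numbers. The classes follow the number in the symbol alone. Most proteins with higher numbers were added in mitochondria, but some, such as those of mRpL47 and mRpS24, have bacterial counterparts under another number. It was 38 of 42 (90.5%) against 22 of 31 (71.0%) in the reproducible set, and 86.5% ± 1.4 against 68.8% ± 1.9 in the replicates, a difference of 17.1, 17.97 and 17.97 points. Their median percentiles were 67.2 and 62.6. Leaving out 1 replicate gave 16.4 to 25.3 points, and the pooled list gave 10.5.

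Proteins that line and guard the peptide exit tunnel in bacteria spanned most of the range. Besides mRpL23 and mRpL24, examples are mRpL4 (pooled signal 611, rank 1753), mRpL17 (422, rank 3474) and mRpL22 (234, rank 7164). Of these, mRpL22 was among the highest regions of 1 replicate only. The stalk that recruits translation factors is built on mRpL10 (673, rank 1434) and mRpL11 (615, rank 1736). These were well above mRpL12 (200, rank 8303), the stalk protein that contacts the factors and that was the weakest gene with a summit. mRpL2 (321, rank 5084), mRpL16 (671, rank 1443) and mRpL27 (564, rank 2100) are 3 of the proteins that lie around the peptidyl transferase centre in bacteria. These 3 do not stand for all proteins of that region. Other large subunit genes with bacterial numbers, such as mRpL3 (202, rank 8243), ranked lower. The 3 paralogues mRpS18A, mRpS18B and mRpS18C had signals of 286, 466 and 392 and ranks of 5798, 2948 and 3877. The genes of this paragraph outside the 12 highest and 4 lowest were chosen for their roles after their values were seen.

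The 4 genes with the lowest signal in the set were close to its lower limit of 184.6. They were mRpS29, the fly counterpart of the GTP-binding protein DAP3, at 229 (rank 7305), mRpL54 at 205 (rank 8110), mRpL3 at 202 (rank 8243) and mRpL12 at 200 (rank 8303). Each was among the 8952 highest regions of 2 of the 3 replicates. mRpS29 ranked 6607, 12889 and 5182 in replicates 1, 2 and 3, and mRpL12 ranked 8946, 13401 and 6128, so replicate 2 was the low one for both. mRpL54 ranked 7225, 7286 and 9841, and mRpL3 ranked 10636, 6828 and 5645.

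Of the 13 genes without a reproducible summit, 8 had a weaker region in the pooled list. mRpL49 was the nearest to entering the set, with a pooled signal of 178 at rank 9226 and replicate ranks of 9923, 12230 and 11768. mRpS5, a protein of the bacterial decoding region, was at rank 10235 with its summit 403 bp after the TSS, and its replicate ranks were 8370, 10379 and 10560. mRpL14 (rank 10462; replicates 10562, 9668 and 22378) and mRpL39 (rank 10657; 11874, 12591 and 8570) followed. Each of these 4 had a region in all 3 replicates, and none was among the highest in more than 1.

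The weaker regions of the pooled list were those of mRpL30 (rank 13535), mRpS28 (rank 16160), mRpS34 (rank 17182) and mRpS25 (rank 28395). mRpL30, mRpS28 and mRpS34 had no region in replicate 3, and their ranks in replicates 1 and 2 were 13562 and 12996, 9382 and 28434, and 13258 and 14853. mRpS25 ranked 14616, 16677 and 5844, but its summits lay at 105, −490 and −438 bp from the TSS, so the lists did not mark the same place. The other 5 genes had no pooled region within 500 bp. mRpL38 had regions in replicates 1 and 2 (ranks 10752 and 11910). mRpS35 had one in replicate 1 (rank 19159), mRpS33 in replicate 2 (rank 17509) and mRpS9 in replicate 3 (rank 12164), and mRpL46 had none. The nearest reproducible summit was 1121 bp from a TSS for mRpS5 and between 1842 and 12159 bp for the other 12. A gene that is not in a list may still be bound at a level these lists do not show.

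**Figure D4:**
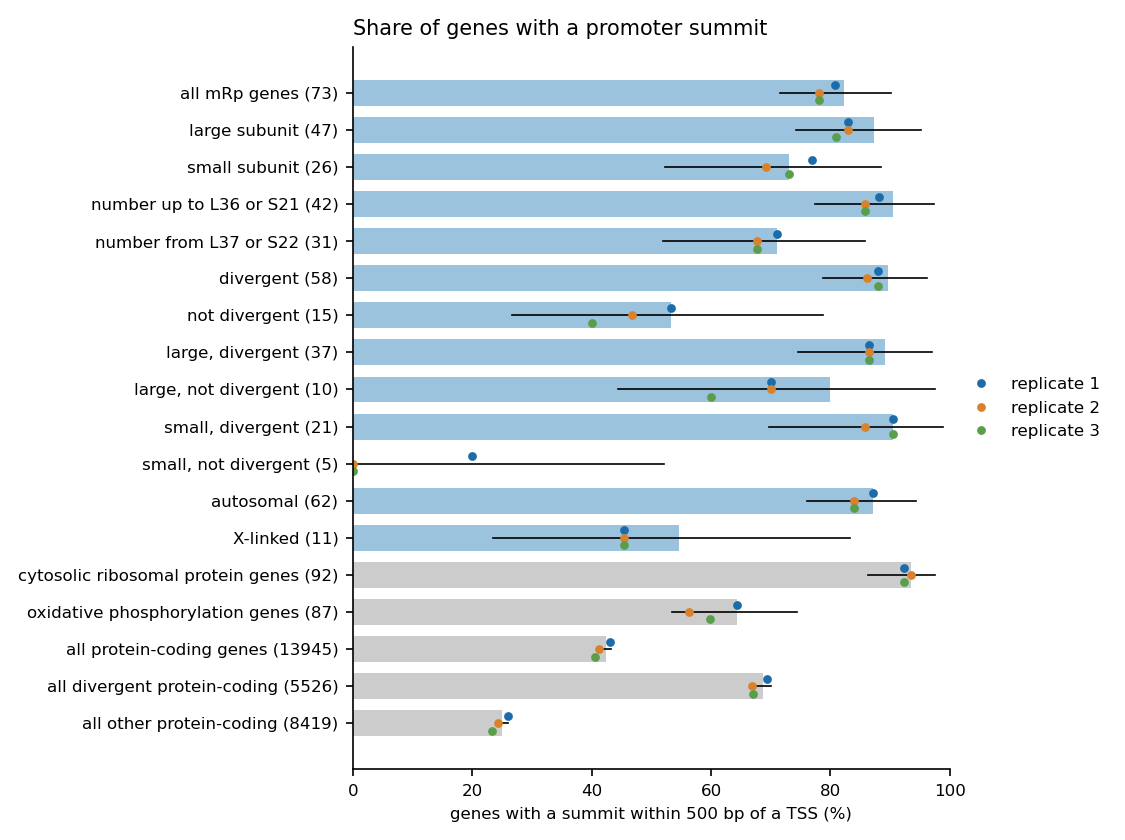
Share of genes (x axis, %) with a summit within 500 bp of a TSS in the reproducible set (bars, with the exact 95% interval, which covers counting error only) and among the 8952 highest regions of each replicate (points), for classes of mitochondrial ribosomal protein genes (blue) and for other genes (grey), with the number of genes in brackets. Divergent genes reach 89.7% and the 15 others 53.3%.

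Divergent promoters, where a second gene starts on the other strand within 1000 bp upstream and points away, were the rule in this group. A total of 58 of the 73 genes (79.5%) had such a neighbour, against 39.6% of all protein-coding genes and 63.0% of cytosolic ribosomal protein genes. A reproducible summit was found at 52 of the 58 divergent genes (89.7%), against 68.7% of all divergent protein-coding genes, and at 8 of the 15 others (53.3%), against 25% of all other protein-coding genes. In the replicates the shares were 87.4% ± 1.0 and 46.7% ± 6.7, and divergent genes were ahead by 34.6, 39.5 and 47.9 points. Against genes of the same geometry, divergent members were ahead of the background by 18.6, 19.4 and 20.9 points and the others by 27.4, 22.3 and 16.8 points. The median percentile was 66.9 for divergent and 35.2 for other genes with a summit, against 70.6 and 56.0 for all genes of those kinds. The gap of 36.3 points was 20.8 with summits within 200 bp, 24.3 where the region had to cover a TSS and 16.6 in the pooled list.

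The 8 genes with a summit and no divergent neighbour were all of the large subunit. They were mRpL10, mRpL13, mRpL19, mRpL9, mRpL36, mRpL40, mRpL45 and mRpL12, and apart from mRpL12 they are named after their values were seen. mRpL13 shares its TSS with CG10602. None of the 5 small subunit genes of this kind (mRpS5, mRpS34, mRpS9, mRpS33 and mRpS35) had a summit, while 19 of the 21 divergent small subunit genes did. In the large subunit the counts were 33 of 37 divergent and 8 of 10 other genes. With 5 genes, the exact 95% interval of the share reaches 52.2%, and it covers counting error only. The count also depended on the list. In the pooled list 2 of these 5 genes had a region (40%, against 43.7% of all non-divergent protein-coding genes). Among the highest regions the count was 1 in replicate 1 and 0 in replicates 2 and 3. The count of 8 was 5 without replicate 1, 5 without replicate 2 and 6 without replicate 3, and 3 in the stronger 50% of the set.

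X-linked genes had a lower share of summits than autosomal ones, a comparison added after the values were seen. Of the 11 mitochondrial ribosomal protein genes on the X chromosome, 6 had a reproducible summit (54.5%, against 44.7% of all X-linked protein-coding genes), and of the 62 autosomal genes 54 had one (87.1%, against 41.9%). The autosomal arms differed as well, so a low share was not particular to the X. Reproducible summits lay at 12 of 12 genes on arm 2L, 11 of 12 on 2R, 12 of 17 on 3L (70.6%) and 19 of 21 on 3R. Shares of all protein-coding genes by arm were not computed. The X-linked count among the highest regions was 5 in every replicate, and the autosomal counts were 54, 52 and 52. Divergent genes showed the same order, with 6 of 9 on the X and 46 of 49 on autosomes. The gap of 32.6 points was 55.0 without replicate 3, 53.4 without replicate 2 and 2.64 in the pooled list, where 10 of the 11 X-linked genes had a region. The embryos were of mixed sex, and the number of X chromosomes per cell was not measured here.

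The summits lay mostly upstream. The median position was −101 bp from the nearest TSS of the gene, where negative is upstream (quartiles −181 and −41.75 bp), and 54 of 60 summits were upstream (90%), against a median of −88 bp and 81.2% over all protein-coding genes with a summit. In the replicates the medians were −103.5, −95.5 and −98.5 bp. The median was −112.5 bp for divergent genes, against −107 bp for all divergent protein-coding genes, and −42.5 bp for the 8 others, against −56 bp for all others. Of the 60 summits, 48 lay within 200 bp of the TSS, a share close to that over all protein-coding genes with a summit (4429 of 5903). Of the 60, 6 summits lay after the TSS. Those of mRpL23, mRpL36 and mRpL45 did so in every replicate, and the last 2 are named after their values were seen. mRpL23 had its summit at 59 bp in the reproducible set and at 64, 87 and 54 bp in the replicates. mRpL36 had it at 126 bp and at 30, 202 and 155 bp, and mRpL45 at 15 bp and at 15, 18 and 15 bp.

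The gap between the TSSs of the 58 divergent pairs ranged from 20 to 793 bp with a median of 283 bp. In the 52 divergent promoters with a summit the partner was protein-coding in every case. The summit lay between the TSSs in 42 and outside them in 10. It was within 500 bp of the partner's TSS in 49, and was closer to the mitochondrial ribosomal protein gene in 23 and to the partner in 29, so that position alone does not assign it to either gene. With gaps over 250 bp the summit was inside in 28 of 29 and its median position was −180 bp. With shorter gaps it was inside in 14 of 23 and its median position was −59 bp. A longer gap leaves more room for a summit between the TSSs. The counts of this paragraph were not made for all divergent protein-coding genes, so they do not show a trait of this group.

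**Figure D5:**
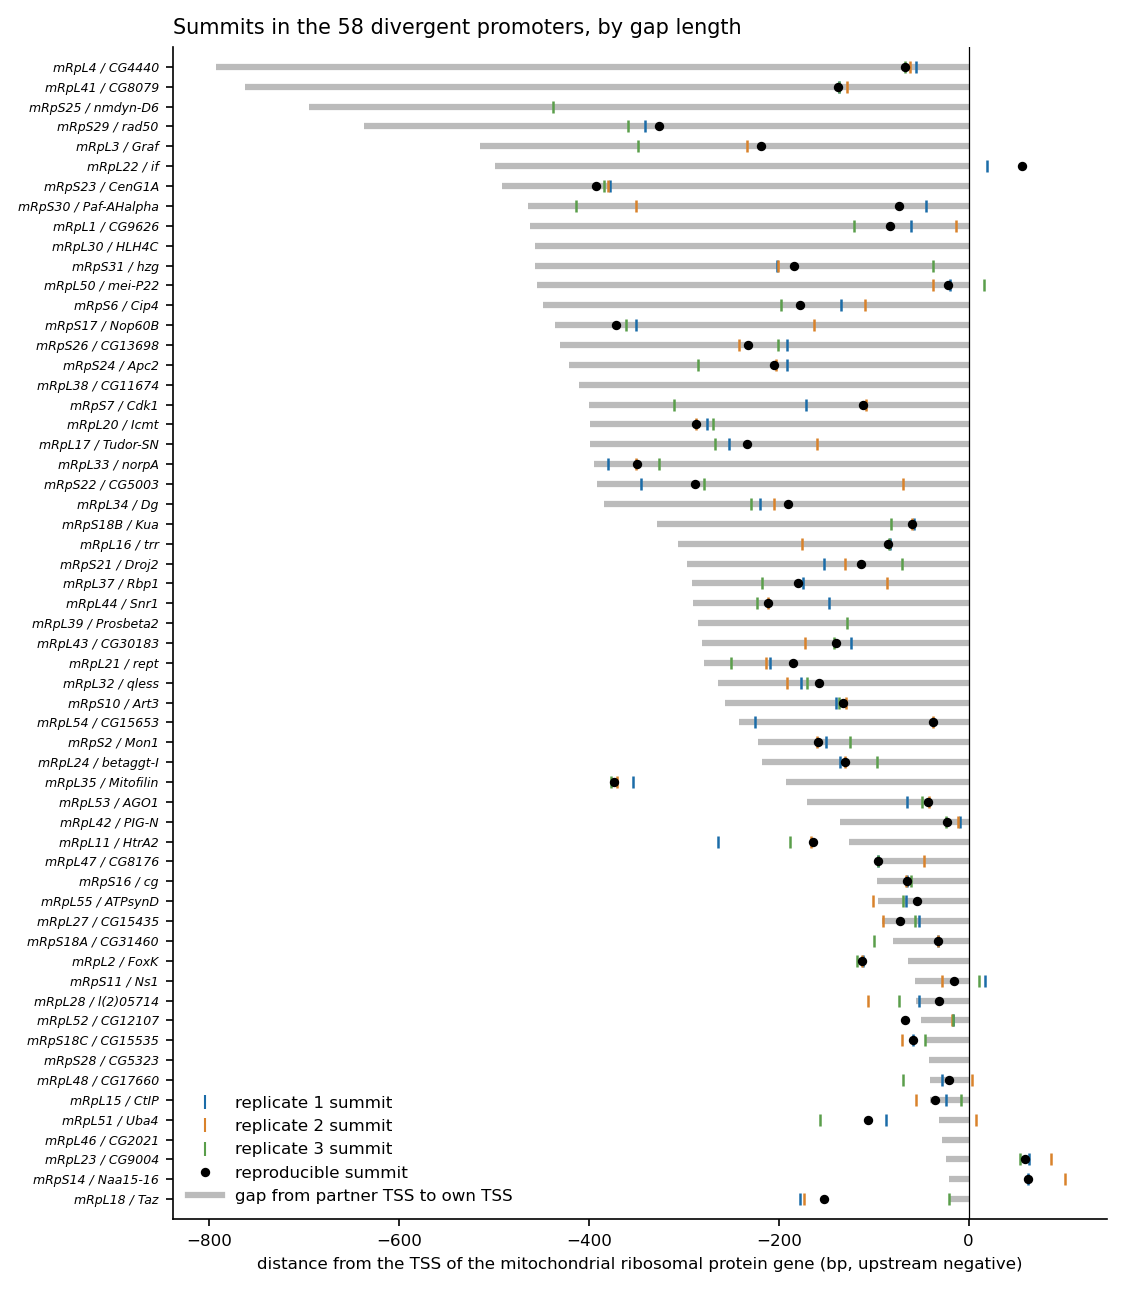
Summits in the 58 divergent promoters, in bp from the nearest TSS of the mitochondrial ribosomal protein gene (upstream negative), sorted by the distance to the partner's TSS (grey bars). Circles are reproducible summits and ticks are those of each replicate among its 8952 highest regions. Of the 52 circles, 42 lie between the TSSs, and in mRpS23 and mRpL20 the 3 replicates fall together near the partner's end of the gap.

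Among the strongest genes the position varied from promoter to promoter, and between replicates in some. The mRpL41 region (chr2R:15217549-15218019) lies in a gap of 762 bp shared with CG8079, and its summit was at −138 bp, with −137, −128 and −137 bp in the replicates. mRpS10 shares a gap of 257 bp with Art3, an arginine methyltransferase gene, and its summit lay at −132 bp, near the middle of the gap. mRpS23 shares 492 bp with CenG1A, a regulator of Arf GTPases, and its summit was at −393 bp and so nearer to CenG1A. mRpL20 likewise had its summit, at −287 bp, nearer to its partner Icmt, an enzyme that modifies prenylated proteins.

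For the rest of the 12, mRpL23 was paired with CG9004 (gap 24 bp), mRpL24 with betaggt-I (218 bp), mRpS2 with the vesicle-trafficking gene Mon1 (222 bp), mRpS16 with combgap (cg, 97 bp) and mRpL34 with dystroglycan (Dg, 384 bp). mRpL53 was paired with Argonaute gene AGO1 (170 bp) and shares its TSS with CG33155. mRpL47 was paired with CG8176 (99 bp) and mRpS6 with Cip4 (448 bp), and the mRpS6 summit was at −135, −109 and −198 bp in the replicates (SD 45.8 bp). Of the 4 lowest genes, mRpS29 was paired with the DNA repair gene rad50 (637 bp), mRpL54 with CG15653 (242 bp) and mRpL3 with Graf (515 bp). Further partners were named after their values were seen, for their products, and how often partners have such products was not counted. mRpL35 adjoins Mitofilin (192 bp), mRpL55 adjoins the ATP synthase gene ATPsynD (95 bp) and mRpL11 adjoins the mitochondrial protease gene HtrA2 (126 bp). mRpL21 (rank 2979) adjoins rept (279 bp), whose product reptin is an ATPase of the INO80 complex, and its summits lay at −209, −214 and −250 bp in the replicates. mRpL44 (rank 2657) adjoins Snr1 (290 bp), a subunit of the Brahma remodelling complexes.

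Most summits were placed closely in the replicates. The SD of the position over replicates had a median of 25.7 bp over 58 genes with a summit and a region in every replicate, and was above 50 bp in 18. The 6 genes of all 73 with the largest SD were mRpS25 (330 bp), mRpS30 (197 bp), mRpS22 (144 bp), mRpS5 (136 bp), mRpL14 (131 bp) and mRpS17 (111 bp), of which mRpS25, mRpS5 and mRpL14 had no reproducible summit. mRpS17 had its strongest region at −350, −163 and −361 bp in replicates 1, 2 and 3. When the replicate region nearest to the reproducible summit was taken instead, its SD was 7 bp, so replicate 2 held a second, stronger region in that promoter. The same choice took mRpS30, whose strongest summits lay at −45, −350 and −414 bp, to 88.3 bp, and left mRpS22 at 144 bp. Over all 58 genes the median was then 24.1 bp, a choice made after the values were seen.

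Other genes of mitochondrial gene expression were counted in the same way. Of 44 such genes, 28 had a reproducible summit (63.6%), beside the background of 42.3% and the 82.2% of the ribosomal protein genes, a difference that was not tested. They were 11 of 15 genes for the mitochondrial genome, transcription and RNA, 11 of 18 for tRNA charging, 5 of 9 translation factors and 1 of 2 ribosomal proteins under other names. The last were technical knockout (tko), the S12 protein of the decoding centre, with a signal of 341 (rank 4701), and bonsai, an S15 protein with no reproducible or pooled region, although 2 replicates had one among their highest. The 4 strongest were PNPase, the exoribonuclease of mitochondrial RNA, at 3780 (rank 13), SLIRP2 at 2226 (rank 83), the amidotransferase subunit GatA at 859 (rank 865) and SLIRP1 at 837 (rank 923).

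The 16 genes of that list without a reproducible summit were bonsai and the following. TFAM, which packs mitochondrial DNA, was just outside the set with a pooled signal of 180 (rank 9122), and mtTFB2 (rank 10753), mtDNA-helicase (rank 13330) and mIF3 (rank 18601) had weaker pooled regions. The DNA polymerase gene PolG1 had none, nor had mEFTu2, mRRF1, mRRF2, GatB and the synthetase genes AsnRS-m, GluRS-m, IleRS-m, MetRS-m, TyrRS-m and ValRS-m. GatC and PolG2, which do have a summit and are named after their values were seen, share a TSS and so share 1 region (rank 2239).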

How the data were processed

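ChIP-seq regions from 3 replicates were used. Per the file notes, the authors called regions on each replicate and on the pooled replicates against 1 control alignment, not analysed here, and kept a reproducible (IDR) set, which was found to equal the 8952 pooled regions of highest signal. No source used here names the aligner, the caller or the cutoff of the IDR step. The signal deposited for each region was used only within a list, and the deposited summit offset gave positions. The number of regions counted per replicate was fixed at the size of the IDR set. Sets with 1 replicate left out were built from the 8952 highest regions of each remaining replicate. A region of the first was kept where it overlapped a region of the second by at least 50% of the shorter region. The dm3 lists were not used. TSSs came from Ensembl release 115 (BDGP 6.54), which has the same assembly as dm6. Coordinates are 1-based. Tests were exact sign-flip tests over replicates, and no test was run over genes. The labels call the replicates biological and say nothing more of their origin, so p-values measure only the spread between these samples. The members, lists and alternatives were chosen with earlier results of these data known. Named genes were the 12 strongest and 4 weakest with a summit, those without one, the 6 with the largest SD, and the strongest 4 and all without a summit of the list of other mitochondrial genes. Other genes, named for a role, a partner, a position or a missing replicate region, were chosen after their values were seen. In that list 6 symbols matched no gene. Intervals are exact (Clopper-Pearson) and cover counting error only. Functions were tested on simulated data. Scripts ran in Python 3.11.15 with scipy 1.17.1, pandas 2.3.3, numpy 2.4.6 and, for figures, matplotlib 3.10.9.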

Additional observations from a re-analysis of the deposited data

How the results depend on the processing

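Counts, percentiles and SDs have no direction to reverse. No difference between gene classes and no median position changed sign in the 70 alternatives other than motif windows. In the 24 with windows of 25 or 100 bp, 9 motif shares changed sides of the share of all promoter summits, among them the Motif 1 core (3.33% against 2.49% within 25 bp) and the 8-letter Motif 5 form (1.67% against 1.26% and, within 100 bp, 11.7% against 5.83%). The count of 60 genes was 51 with TSSs within 200 bp (34.5% of all genes), 43 in the stronger 50% of the set (28.8%), 53 where the region had to cover a TSS (33.9%), and 53 to 54 with 1 replicate left out, when the set held 7509 to 7771 regions and the share of all genes was 37.2 to 39.0%. The large minus small subunit difference of 14.2 points was 24.9 (200 bp), 7.86 (stronger 50%), 29.1 (covering) and 7.28 (pooled list), and 5.24 to 13.3 with 1 replicate left out. The difference by bacterial number, 19.5, was 26.1 (200 bp), 18.3 (stronger 50%) and 10.5 (pooled), and 16.4 to 25.3. The divergent minus other difference, 36.3, was 20.8 (200 bp), 49.0 (stronger 50%), 24.3 (covering) and 16.6 (pooled), and 42.8 to 49.4. The autosome minus X difference, 32.6, was 39.4 (200 bp), 37.2 (stronger 50%) and 2.64 (pooled), and 42.7 to 55.0. The non-divergent count of 8 was 3 in the stronger 50%, and 5 to 6. The median percentile of 66.0 was 64.8 with the nearest region and 65.6 within 200 bp, and 87.7 to 88.2 in the replicate lists. The median position of −101 bp was −107 from the canonical TSS, −84 with the nearest region and −70 within 200 bp, and −97 to −101 over pairs of replicates. The comparisons by chromosome, the non-divergent count and the matched replicate regions were added after seeing the data. The causes were not tested. No paired analysis was possible because there was 1 group of samples; differences between gene classes were taken within each replicate. Depth was unknown, so a gene outside a list may be bound below its limit.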

Other observations

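The E-box of Motif 5 was also frequent at the other genes of mitochondrial gene expression. Its 8-letter form was present in 18 of those 44 promoters (40.9%), against 7.59% of all protein-coding genes, and 22 of the 26 sites lay within 50 bp of the TSS. Oxidative phosphorylation genes had it in 11 of 87 promoters (12.6%), and cytosolic ribosomal protein genes, the group with the highest share of summits, in 2 of 92 (2.17%). These shares are descriptions of sequence and were not tested.

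Across all promoter summits of the reproducible set, the 1280 among the highest 20% of regions by signal had a median A and T content of 67.3% within 50 bp of the summit, and the 830 among the lowest 20% had 60.4%. Spearman's rho between signal and A and T content was 0.18 over 5537 promoter summits and 0.29 over the 60 of mitochondrial ribosomal protein genes. The points share libraries and base composition of the genome, and no p is given. The part of sequencing or fragmentation in this was not tested.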
